A study of Mus musculus with 2 samples.

Results

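The 10 genes that carry leukocyte adhesion at the vessel wall were followed through 2 single-cell RNA libraries of the mouse kidney after ischemia, namely the E-selectin and P-selectin genes *Sele* and *Selp*, the immunoglobulin-family ligands *Icam1*, *Icam2* and *Vcam1*, the junction genes *Pecam1* and *Jam2*, the sialomucin gene *Cd34*, the integrin subunit gene *Itgb1* and the sphingosine 1-phosphate receptor gene *S1pr1*. They were taken by symbol, and all 10 are among the 32285 genes of the count tables. Unique molecular identifiers (UMIs, each standing for 1 captured transcript) were summed over the barcodes with 500 to 100000 UMIs, at least 200 genes and at most 50% mitochondrial UMIs, within cell classes defined by marker genes that did not include the 10.

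The left renal pedicle was clamped for 25 minutes in mice of 8 to 10 weeks, and the injured kidney was dissociated on day 14 and run with the 10X Genomics 3′ kit. The *Cre-* library came from 1 littermate without Cre, and the other from 1 mouse carrying *Cdh5-CreERT2* with floxed *Phd1*, *Phd2* and *Phd3* alleles (*PHDTiEC*), in which Cre follows the endothelial *Cdh5* promoter and removes the HIF prolyl hydroxylases once tamoxifen is given. Tamoxifen was given to both as 4 injections of 3 mg per mouse, every other day after the injury, and whether the *Cre-* mouse carried the floxed alleles is not stated in the labels. With 1 mouse and 1 library per genotype no difference below has a replicate check, no test was made, and every interval is a 95% interval for counting error only.

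Leukocytes leave the blood in steps. Selectins on activated endothelium catch them from the flow through sialylated, fucosylated ligands, and endothelial ICAM1 and VCAM1 then hold them through leukocyte integrins. ICAM2, PECAM1 and the JAM proteins sit at endothelial junctions where cells cross, CD34 covers the luminal surface, the integrin subunit encoded by *Itgb1* anchors cells to matrix, and S1PR1 is a G protein-coupled receptor that tightens the endothelial barrier. In the injured kidney VCAM1 and ICAM1 are also made by tubular cells, so both were measured in tubule as well as in endothelium.

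In the mouse genome (GRCm38, mm10) *Sele* at chr1:164048234-164057677 and *Selp* at chr1:164115264-164150026 lie on the same strand with 57.6 kb between them. *Icam1* lies at chr9:21015985-21028817, *Vcam1* at chr3:116109949-116129688 and *Icam2* at chr11:106377656-106388075. *Pecam1* lies at chr11:106654217-106750628, *Jam2* at chr16:84774123-84825928 and *Cd34* at chr1:194938819-194961279. *Itgb1* lies at chr8:128685654-128733200 and *S1pr1* at chr3:115710433-115715072. All 10 are protein-coding genes. Antisense or other genes lie over *Icam1*, *Vcam1*, *Selp* and *Cd34*, but they drew at most 53 UMIs each over both libraries. An rRNA gene that lies over *Jam2* is not in the count tables.

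The promoters of *Icam1*, *Sele* and *Selp*, classical targets of NF-kB, are shown because of their levels in a rebuilt class named after cortical endothelium. There they were among the members with the higher summed level in *PHDTiEC*. For *Sele* and *Selp* this rested on few barcodes, and as the mean over cells the log2 ratios of *PHDTiEC* over *Cre-* were -0.25 and -0.013. RefSeq sequence of GRCm38.p6 was at hand for 5 of the 10 members and not used here for *Icam2*, *Vcam1*, *Pecam1*, *Jam2* and *S1pr1*. Each run is the 250 bases before the RefSeq start on the + strand, at chr9:21015690-21015939 for *Icam1*, chr1:164047984-164048233 for *Sele* and chr1:164115014-164115263 for *Selp*, and capitals mark matches to the kB-type motif GGNNNTTCC on either strand (reverse complement GGAANNNCC).
Icam1: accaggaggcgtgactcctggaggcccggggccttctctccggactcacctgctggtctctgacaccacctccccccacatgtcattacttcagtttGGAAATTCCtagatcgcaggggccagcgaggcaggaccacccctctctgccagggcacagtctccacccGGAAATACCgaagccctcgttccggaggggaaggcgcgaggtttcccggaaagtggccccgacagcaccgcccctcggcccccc
Sele: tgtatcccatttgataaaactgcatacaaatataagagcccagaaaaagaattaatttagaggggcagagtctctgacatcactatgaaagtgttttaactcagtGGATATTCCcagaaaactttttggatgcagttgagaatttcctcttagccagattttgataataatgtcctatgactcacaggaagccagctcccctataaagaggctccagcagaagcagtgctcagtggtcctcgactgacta
Selp: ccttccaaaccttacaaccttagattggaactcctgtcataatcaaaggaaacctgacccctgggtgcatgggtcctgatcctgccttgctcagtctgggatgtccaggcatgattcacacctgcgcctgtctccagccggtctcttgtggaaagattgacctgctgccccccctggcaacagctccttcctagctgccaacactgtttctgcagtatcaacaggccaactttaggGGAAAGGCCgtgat
The *Icam1* window held 2 matches, GGAAATTCC starting 153 bases and GGAAATACC starting 84 bases before the start. *Sele* held GGATATTCC at 145 bases, an AP-1-type TGACTCA at 73 bases and a TATAAA at 49 bases before the start. *Selp* held GGAAAGGCC at 14 bases and TGATTCA at 139 bases. Of the other windows, *Itgb1* held 1 kB-type match and *Cd34* none, and the HIF core motif ACGTG (reverse complement CACGT) was in none of the 5. Of 32851 windows of this length, 15.7% held GGNNNTTCC, 16.6% ACGTG, 12.4% TATAAA and 6.75% TGANTCA on either strand, so a match is a description of the letters and not of a bound site.

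The filters kept 8548 barcodes of the *Cre-* library with a median of 7500 UMIs and 9309 of the *PHDTiEC* library with a median of 7898. Clustering gave 30 clusters, of which 1 rich in *Gm26917* was left out, and names such as cREC-like stand for these rebuilt clusters and not for cell labels of the study. The endothelial classes were named after medullary renal endothelial cells (mREC-like, 186 and 227 barcodes in the *Cre-* and *PHDTiEC* libraries) and cortical ones (cREC-like, 125 and 209). The mREC-like class was led by *Sox17*, *Igfbp3* and *Flt1*. Another class, led by *Rgs5* (92 and 113), carried endothelial genes together with 6779 and 7859 CPM, that is UMIs per 1000000 UMIs of the class, of pericyte markers. Its barcodes had medians of 22833 and 21841 UMIs, against 7097.5 and 8905 in the mREC-like class. The part of doublets of endothelial and mural cells in the *Rgs5*-led class was not tested. Every one of 13 endothelial markers was seen in each class and library. The levels of the floxed genes did not follow the label of the *PHDTiEC* library, since *Egln1* and *Egln3* were higher in it in all 3 endothelial-like classes. In mREC-like cells *Egln1* (PHD2) was at 67.2 CPM in *Cre-* and 231 CPM in *PHDTiEC*, *Egln3* (PHD3) at 21.1 and 208 CPM, and *Egln2* (PHD1) at 43.8 and 33.1 CPM. *Egln2* was at 45.1 and 52.5 CPM in cREC-like and at 26.97 and 36.96 CPM in *Rgs5*-led cells. A 3′ count need not see the deleted exons, and *Egln3* is itself a HIF target. A list of 10 HIF response genes (*Egln3* included) was chosen with results of these libraries known. On the log2 scale, *PHDTiEC* over *Cre-*, its genes stood at a median of 3.504 (mREC-like), 1.59 (cREC-like) and 1.52 (*Rgs5*-led). In PT-like cells 8 of the 10 had enough UMIs, and their median was 0.01. Some counts were low in *Cre-*, with 5, 7 and 8 UMIs of *Pgf*, *Adm* and *Ndufa4l2* in mREC-like cells. Whether the library matches its label was not tested. The library is called by its label throughout. The libraries shared 28 barcodes.

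By where their transcripts lay, the 10 genes fell into a mostly endothelial group and a group that was mostly elsewhere. Of all UMIs of *Jam2*, 88.0% in *Cre-* and 87.9% in *PHDTiEC* lay in endothelial-like barcodes, and for *Pecam1* this share was 83.7% and 85.1%. The shares were 78.9% and 84.8% for *Icam2*, 79.0% and 78.5% for *Cd34*, and 89.8% and 75.7% for *Sele*, which had 59 and 103 UMIs in all. *Vcam1* and *Icam1* lay mostly in tubule. Endothelial-like barcodes held 3.00% and 4.73% of the *Vcam1* UMIs and 3.17% and 5.16% of the *Icam1* UMIs, while tubular classes held 70.4% and 61.8% of *Vcam1* and 58.5% and 52.9% of *Icam1*. *Itgb1* was broad, with 46.1% and 45.6% of its UMIs in tubular and 6.97% and 7.80% in endothelial-like barcodes. *Selp* and *S1pr1* stood between, with a part of their UMIs in leukocytes. Endothelial-like barcodes held 54.5% and 71.4% of *Selp* and 53.7% and 64.5% of *S1pr1*, neutrophil-like barcodes 21.8% and 7.74% of *Selp*, macrophage-like barcodes 17.9% and 14.2% of *S1pr1* (385 and 516 UMIs), and T/NK-like barcodes 9.28% and 7.33% of it.

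**Figure D1:**
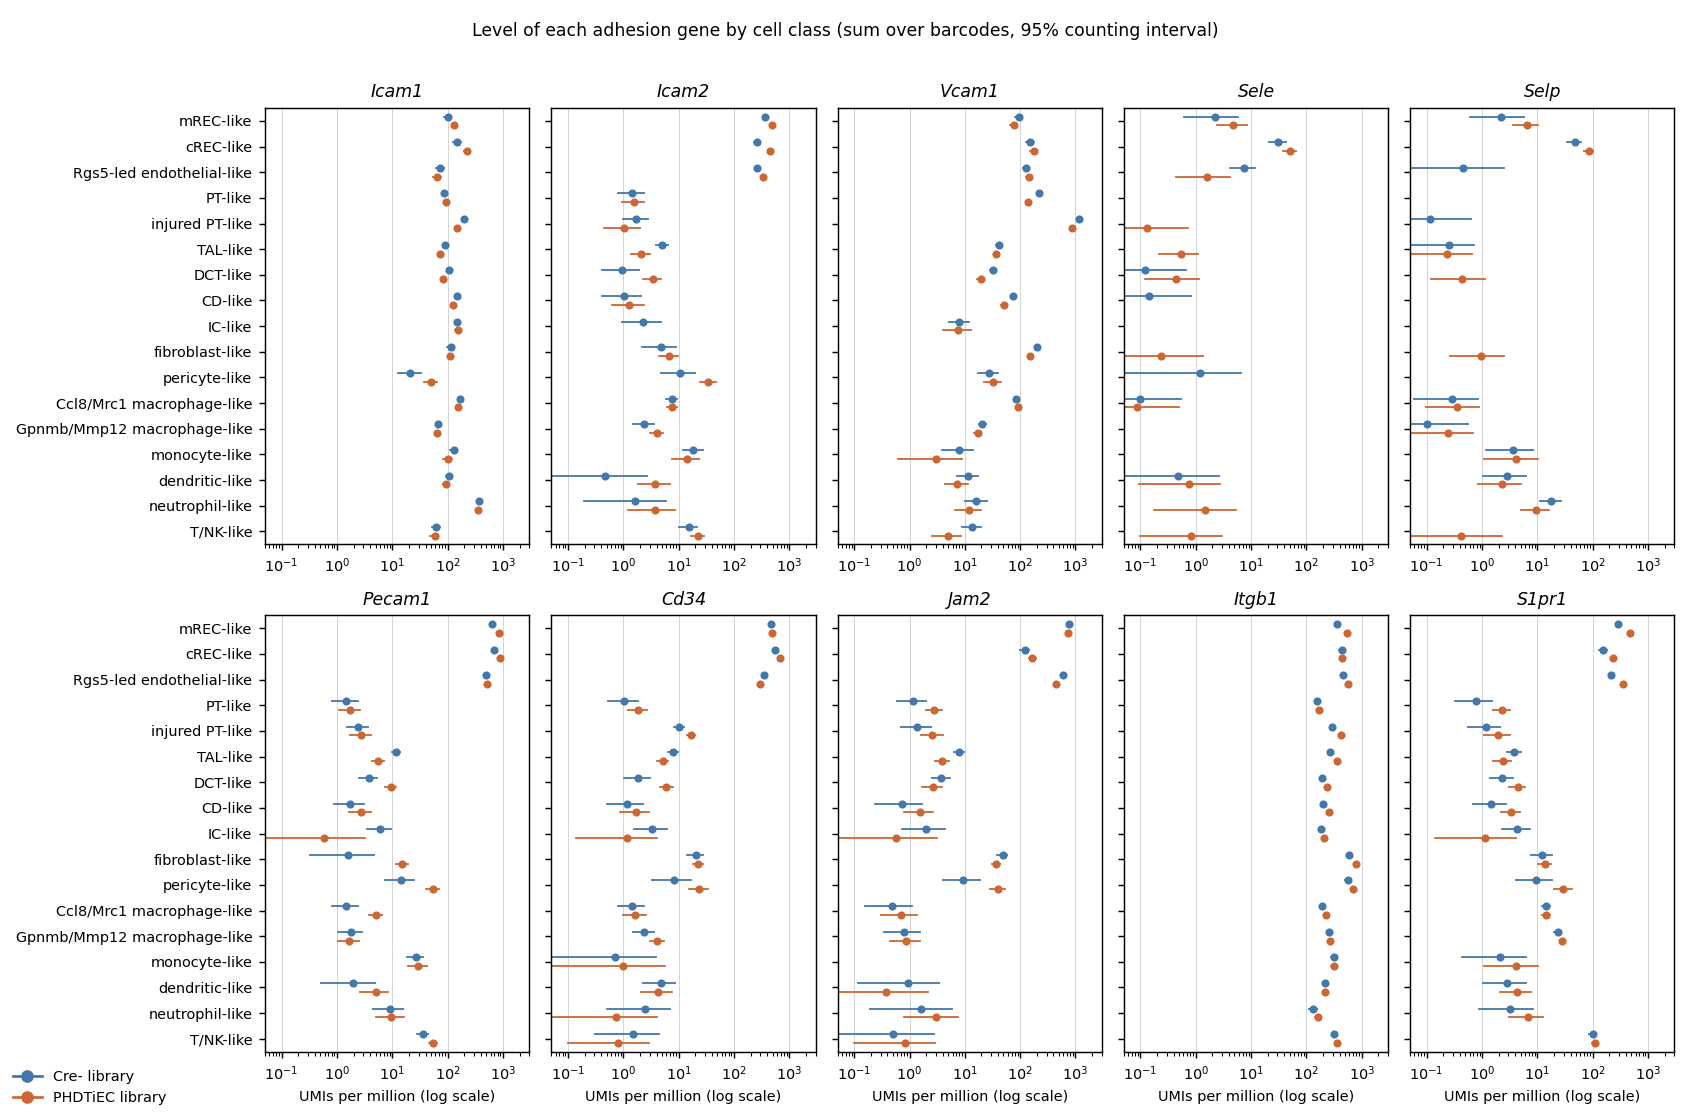
Level of each of the 10 genes (CPM, log axis) in 17 cell classes of the *Cre-* and *PHDTiEC* libraries, with exact Poisson intervals for counting error and 1 library per genotype; a class with no UMI has no point. *Icam2*, *Pecam1*, *Cd34* and *Jam2* stand highest in the 3 endothelial-like classes, and *Vcam1* stands highest in injured PT-like cells at 1174 and 860 CPM.

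Free RNA from broken cells can enter droplets and add to levels outside endothelium. Barcodes under 100 UMIs, which hold such RNA, carried 126 and 94.3 CPM of *Icam1*, 146 and 97.5 CPM of *Vcam1* and 195 and 242 CPM of *Itgb1*. They carried 18.9 and 33.4 CPM of *Pecam1*, 10.8 and 20.1 CPM of *Icam2*, 15.5 and 22.5 CPM of *Cd34*, 15.1 and 17.6 CPM of *Jam2* and 12.4 and 14.1 CPM of *S1pr1*. The selectins were nearly absent from it, with 3 and 1 UMIs of *Sele* and 1 and 7 UMIs of *Selp*. The part of free RNA in the levels outside endothelium was not tested.

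*S1pr1*, which sets barrier tone, was the 1 member of the 10 that stood at least 1.5-fold higher in *PHDTiEC* in each of the 3 endothelial-like classes. In mREC-like cells it was at 291 CPM (524 UMIs) in *Cre-* and 475 CPM (1191 UMIs) in *PHDTiEC*. In cREC-like cells it was at 154 and 237 CPM, and in the *Rgs5*-led class at 212 and 347 CPM. The log2 ratio of *PHDTiEC* over *Cre-* was 0.71 (0.56 to 0.86), 0.62 (0.34 to 0.90) and 0.71 (0.55 to 0.88) in turn, with intervals that overlap. In cREC-like cells the ratio came just under 1.5-fold without *Ptprc*- or *Epcam*-positive barcodes (0.57), and it was 0.44 with free RNA subtracted. No 1 barcode carried it, since the highest barcode held 2.60% to 7.93% of the *S1pr1* UMIs of its class and library. The share of mREC-like barcodes with an *S1pr1* UMI was 72.0% and 88.5%, and after thinning to 1500 UMIs per barcode 32.0% and 42.5% (14 and 6 barcodes were too shallow). In PT-like cells the share was 0.915% and 2.30% at deeper medians of 19404 and 17519 UMIs against 7098 and 8905.

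*S1pr1* was also read in subclusters made from the endothelial-like barcodes alone. In 9 of the 10 subclusters that held both libraries it was higher in *PHDTiEC*. The set led by *Aplnr* and *Plvap* had 193 and 308 CPM, the set led by *Gkn3* and *Vwf* 398 and 606 CPM, the set led by *Slc14a1* and *Aqp1*, genes of descending vasa recta, 312 and 504 CPM, and the set led by *Higd1b* and *Notch3* 207 and 414 CPM. The exception was a shallow set led by *Gm26917*, with 15 UMIs in each library. A set led by *Pgf* and *Bnip3*, both HIF targets, and by the lymphatic marker gene *Ccl21a* held 81 *PHDTiEC* and 0 *Cre-* barcodes. It had 481 CPM of *S1pr1*, and without it the mREC-like log2 ratio was 0.66. Leaving it out takes barcodes from *PHDTiEC* only. In mREC-like cells 5 lymphatic endothelial markers summed to 53.3 and 112 CPM, but they did not move together. *Lyve1* had no UMI in either library. Of the 2 markers with enough UMIs, the lower log2 ratio was 0.076 and the other marker had no UMI in *Cre-*. The part of these markers in the ratios was not tested. Outside endothelium *S1pr1* was at 101 and 109 CPM in T/NK-like cells, where lymphocytes use the receptor to leave tissue, with a log2 ratio of 0.11 (-0.16 to 0.38). In B-like cells it had 65 and 45 UMIs beside 11 and 9 of *Pecam1*, or 5.91 and 5.00 for each of *Pecam1*, where free RNA had 0.659 and 0.424. The part of free RNA in these levels was not tested.

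**Figure D2:**
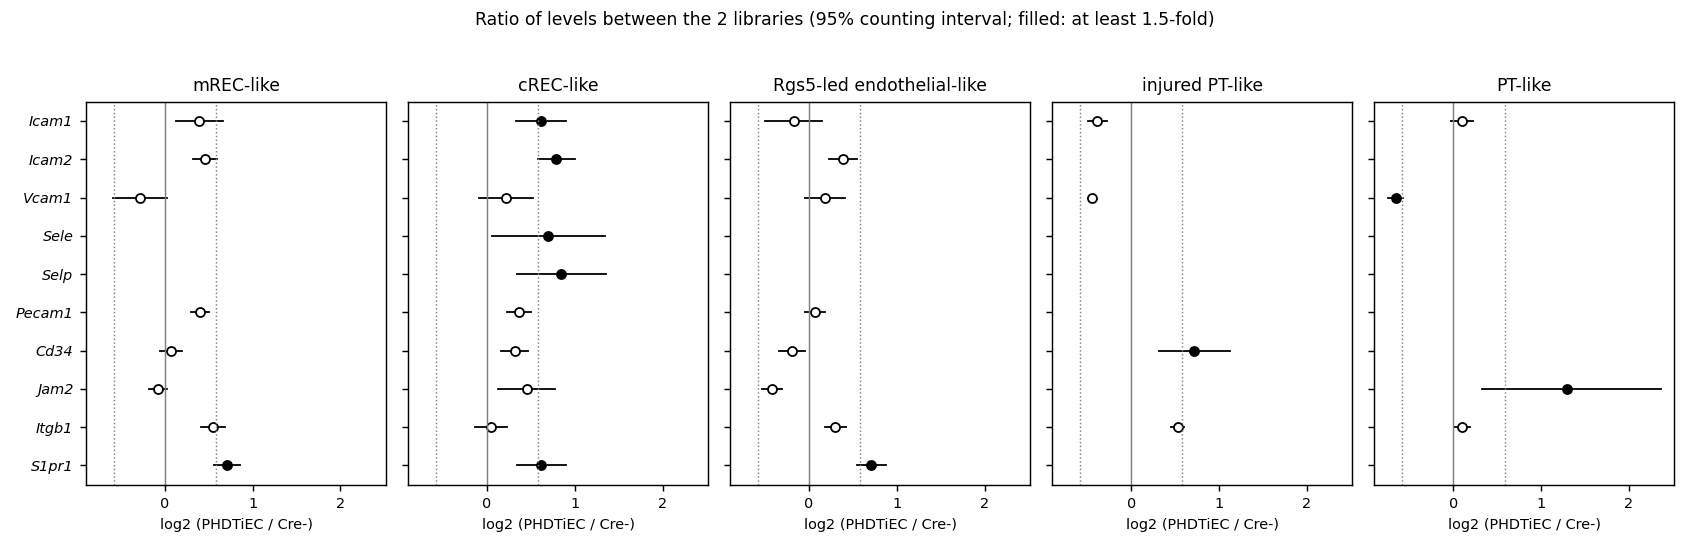
Log2 ratio of CPM, *PHDTiEC* over *Cre-*, for the members that had 50 UMIs or more in sum, in endothelial-like and proximal tubule-like classes, with exact binomial intervals for counting error and filled points past 1.5-fold. *S1pr1* lies between 0.62 and 0.71 in the 3 endothelial-like classes, and *Vcam1* lies at -0.45 in injured PT-like and -0.66 in PT-like cells.

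The selectin genes were highest in cREC-like cells and stood there at a higher level in *PHDTiEC*, but on few cells. *Sele* had 33 UMIs (31.0 CPM) in *Cre-* and 62 UMIs (50.1 CPM) in *PHDTiEC*, a log2 ratio of 0.69 (0.06 to 1.35). *Selp* had 50 UMIs (47.0 CPM) and 104 UMIs (84.1 CPM), a log2 ratio of 0.84 (0.34 to 1.36). The share of cREC-like barcodes with a UMI was 11.2% and 10.5% for *Sele* and 12.8% and 11.96% for *Selp*, so about the same part of the cells was positive in each library. In *PHDTiEC* 1 barcode held 35.5% of the *Sele* and 1 held 39.4% of the *Selp* UMIs, against 18.2% and 18% in *Cre-*. Without the top barcode of each library the log2 ratios were 0.37 and 0.42, and as the mean over cells they were -0.25 and -0.013. In cREC-like barcodes with no *Ptprc* and no *Epcam* UMI, which leaves out those with leukocyte or epithelial RNA, they were 0.063 for *Sele* and -0.0024 for *Selp*.

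Most selectin UMIs of the endothelium lay in 1 subset. The *Aplnr*/*Plvap*-led set (75 and 129 barcodes) held 49 of 55 and 92 of 120 *Selp* UMIs of all endothelial-like barcodes, and 31 of 53 and 58 of 78 *Sele* UMIs. In that set the levels were 85.6 and 103 CPM for *Sele* and 135 and 164 CPM for *Selp*. Every *Selp*-positive cREC-like barcode carried *Plvap*, a gene of fenestral and venular diaphragms (16 of 16 in *Cre-* and 25 of 25 in *PHDTiEC*), where 78.0% and 75.0% of the *Selp*-negative barcodes did. A *Selp* UMI was seen in 6 of 14 and 6 of 22 *Sele*-positive barcodes and in 10 of 111 and 19 of 187 *Sele*-negative barcodes. Positive barcodes were also deeper, with a median of 5200 against 3790 UMIs in *Cre-* and 5674.5 against 3246 in *PHDTiEC* for *Sele*, and the part of depth in this was not tested.

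Elsewhere the selectins were rare. The mREC-like class had 4 and 12 UMIs of *Sele* and 4 and 16 of *Selp*. The *Rgs5*-led class had 16 and 4 UMIs of *Sele*, of which 1 barcode held 68.8% in *Cre-*, and 1 and 0 of *Selp*. Neutrophil-like barcodes had 22 and 13 UMIs of *Selp*, in 17 of 626 and 12 of 661 barcodes, and 0 and 2 of *Sele*. Both selectins were at 0 UMIs in PT-like cells of both libraries, in 437 and 609 barcodes, where a count of 0 (taken as up to 3) allows a UMI in up to 0.687% and 0.493% of barcodes and sets no limit on the cells that express the gene.

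*Icam1*, the ligand of the leukocyte integrins LFA-1 and Mac-1, had a higher level in *PHDTiEC* in cREC-like and mREC-like cells and a lower one in injured tubule. In cREC-like cells it was at 149 CPM (158 UMIs) in *Cre-* and 227 CPM (281 UMIs) in *PHDTiEC*, and in mREC-like cells at 100 CPM (181 UMIs) and 131 CPM (330 UMIs). The log2 ratios were 0.61 (0.33 to 0.90) and 0.39 (0.12 to 0.66). In the *Rgs5*-led class it was at 73.6 and 65.1 CPM and the log2 ratio was -0.18 (-0.50 to 0.15). In injured proximal tubule-like (injured PT-like) cells it was at 197 CPM (1703 UMIs) and 151 CPM (1160 UMIs), a log2 ratio of -0.39 (-0.50 to -0.28), and in PT-like cells at 86.7 and 92.9 CPM. Over the 25 classes with at least 50 *Icam1* UMIs the ratio was below 0 in 17 and above 0 in 8. Past 1.5-fold it was higher in 4 and lower in 1. Over all barcodes the level was 134 and 114 CPM. Among the 8 were urothelial-like cells at 119 and 241 CPM and pericyte-like cells at 21.1 and 49.3 CPM (18 and 55 UMIs), and the lowest ratio, -0.64, was in the class with cycling and collecting duct genes at 173 and 111 CPM.

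*Icam1* was not highest in endothelium. Among the 22 classes with at least 50 barcodes in each library (urothelial-like cells have fewer), neutrophil-like cells were highest in both libraries at 373 and 356 CPM. In *PHDTiEC* cREC-like cells came next at 227 CPM, ahead of a class led by *Slc14a2* and *Fst* at 220 CPM, but those levels did not differ beyond their counting intervals. In *Cre-* the *Slc14a2*/*Fst*-led class followed at 246 CPM and injured PT-like cells at 197 CPM, and cREC-like cells came after these at 149 CPM. Within cortical endothelium the *Aplnr*/*Plvap*-led set carried more, at 221 and 373 CPM, with a log2 ratio of 0.75 (0.38 to 1.15). The cREC-like log2 ratio was 0.79 without *Ptprc*- or *Epcam*-positive barcodes and 0.55 without the top barcode of each library, the latter under 1.5-fold. The mREC-like ratio was 0.62, past 1.5-fold, without the *Pgf*/*Bnip3*-led set, which stood at 104 CPM.

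*Vcam1*, the ligand of the VLA-4 integrin, was mostly a tubular transcript in these kidneys and was lower in *PHDTiEC* in the proximal tubule-like classes that held most of it. Injured PT-like cells held 10157 UMIs (1174 CPM) in *Cre-* and 6626 UMIs (860 CPM) in *PHDTiEC*, which was 50.5% and 41.0% of all *Vcam1* UMIs, and the log2 ratio was -0.45 (-0.49 to -0.40). PT-like cells were at 221 CPM (2313 UMIs) and 140 CPM (1896 UMIs), with a log2 ratio of -0.66 (-0.74 to -0.57). A class led by *Foxd1* was at 470 and 319 CPM and fibroblast-like cells at 203 and 151 CPM, so the level was lower in *PHDTiEC* in those too. The *Slc14a2*/*Fst*-led class was at 376 and 389 CPM, and a class with cycling and collecting duct genes was higher in *PHDTiEC*, at 151 and 258 CPM (287 and 344 UMIs). Of 17 classes with at least 50 UMIs of the gene the ratio was below 0 in 11 and above 0 in 6. Over all barcodes the level was 172 and 123 CPM, a log2 ratio of -0.49 (-0.52 to -0.46).

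Tubular *Vcam1* went with injury genes. PT-like barcodes with a UMI of *Havcr1* or *Krt20*, genes switched on in damaged tubule, carried 285 CPM of *Vcam1* in *Cre-* and 198 CPM in *PHDTiEC*, against 66.0 and 64.5 CPM in PT-like barcodes without one. The first were 260 of 437 and 307 of 609 barcodes, so the injury-positive part was larger in *Cre-*, and they were deeper (medians of 23870 and 19070 UMIs against 13780 and 15526). In injured PT-like cells with such a UMI *Vcam1* was at 1228 and 910 CPM, and in the 35 and 30 barcodes without one at 692 and 325 CPM. *Icam1* spread less, with 97.2 and 109 CPM in the injury-positive and 61.0 and 71.4 CPM in the other PT-like barcodes. The 7 injury markers of the list summed to 29216 and 24761 CPM in PT-like and to 52570 and 44926 CPM in injured PT-like cells, lower in *PHDTiEC* as *Vcam1* was, and their part in its ratio was not tested.

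**Figure D3:**
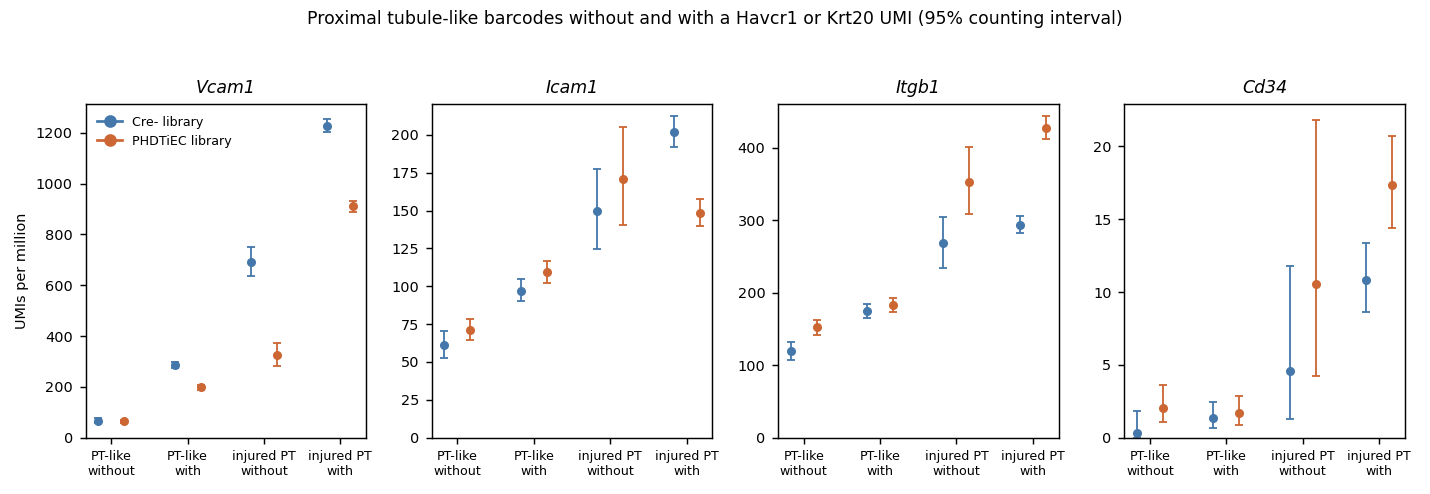
Level of *Vcam1*, *Icam1*, *Cd34* and *Itgb1* (CPM, linear axis) in PT-like and injured PT-like barcodes with and without a UMI of *Havcr1* or *Krt20*, by library, with exact Poisson intervals for counting error. *Vcam1* runs from 66.0 and 64.5 CPM in PT-like barcodes without such a UMI to 1228 and 910 CPM in injured PT-like barcodes with one.

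Endothelial *Vcam1* did not share 1 direction across the 3 endothelial-like classes. It was at 93.8 CPM (169 UMIs) and 76.9 CPM (193 UMIs) in mREC-like cells and at 150 and 175 CPM in cREC-like cells. In the *Rgs5*-led class it was at 126 and 143 CPM, beside 146 and 97.5 CPM in free RNA. The log2 ratios were -0.29 (-0.59 to 0.02), 0.21 (-0.09 to 0.52) and 0.18 (-0.05 to 0.41), each with an interval that includes 0. The *Pgf*/*Bnip3*-led set of *PHDTiEC* was at 42.3 CPM, and without it the mREC-like ratio was 0.26. Leaving it out takes barcodes from *PHDTiEC* only, and its part in the ratio was not tested. By subcluster *Vcam1* was at 304 and 282 CPM in the *Aplnr*/*Plvap*-led, 240 and 230 CPM in the *Gkn3*/*Vwf*-led and 264 and 215 CPM in the *Slc14a1*/*Aqp1*-led set, and it had 1 and 3 UMIs in a set led by *Rspo3* and *Calca*.

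**Figure D4:**
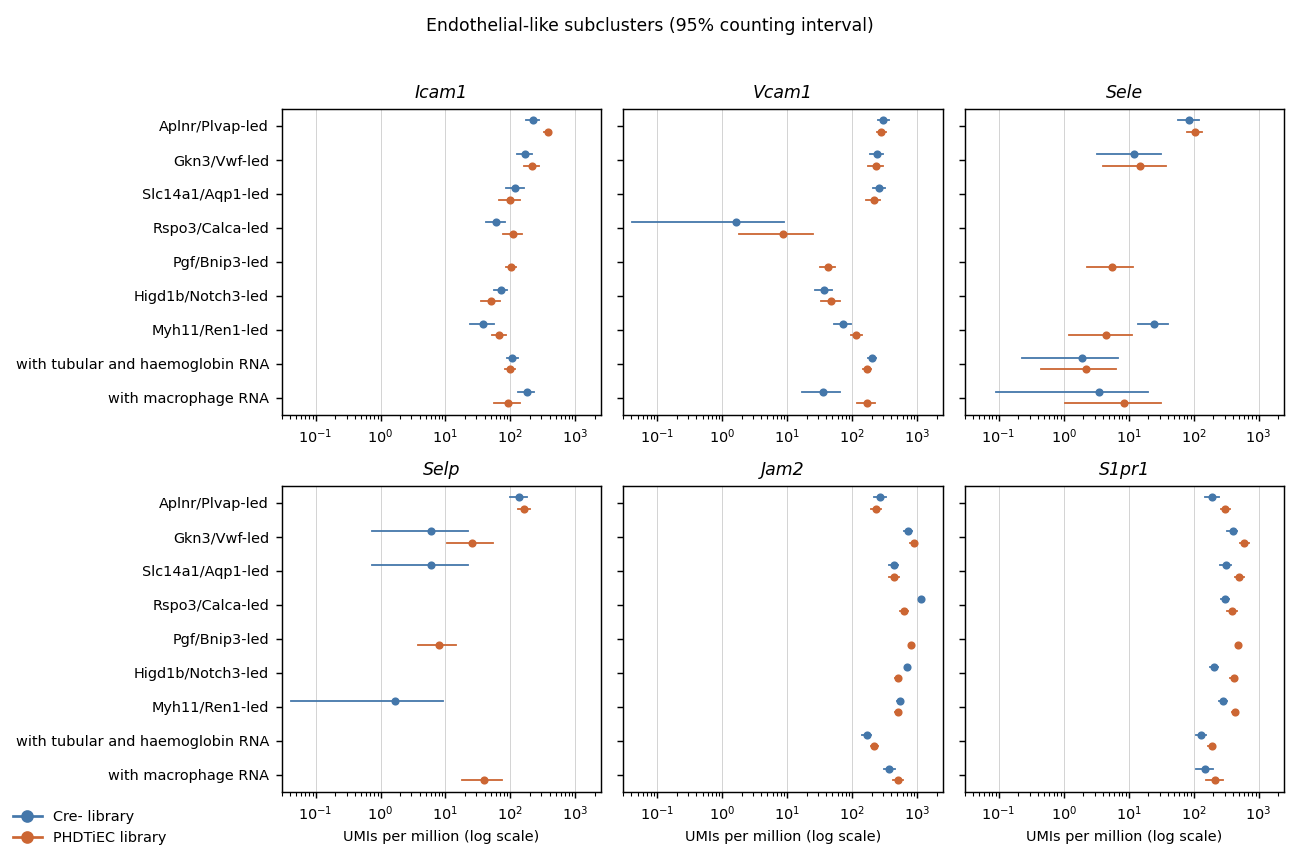
Level of 6 members (CPM, log axis) in 9 subclusters of the endothelial-like barcodes, by library, with exact Poisson intervals for counting error; the *Gm26917*-led and *Zfp60*-led sets are left out and the *Pgf*/*Bnip3*-led set holds *PHDTiEC* barcodes only. *S1pr1* is higher in *PHDTiEC* in the 8 sets drawn with both libraries, and *Vcam1* ranges from 1.63 CPM in the *Rspo3*/*Calca*-led to 304 CPM in the *Aplnr*/*Plvap*-led set of *Cre-*.

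*Icam2*, a ligand that resting endothelium carries at its junctions, was higher in *PHDTiEC* in all 3 endothelial-like classes. It was at 358 CPM (645 UMIs) and 492 CPM (1234 UMIs) in mREC-like, at 260 CPM (276 UMIs) and 448 CPM (554 UMIs) in cREC-like and at 259 and 338 CPM in *Rgs5*-led cells. The log2 ratios were 0.46 (0.32 to 0.60), 0.79 (0.58 to 1.00) and 0.38 (0.23 to 0.54), of which that of cREC-like cells passed 1.5-fold. It was 0.56 in cREC-like barcodes without *Ptprc* or *Epcam* UMIs and 0.50 in those of the *Aplnr*/*Plvap*-led set. The mREC-like ratio was 0.22 without the *Pgf*/*Bnip3*-led set, which stood at 584 CPM. In every other class it was at 35.4 CPM or less.

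*Pecam1*, the homophilic adhesion molecule known as CD31, was higher in *PHDTiEC* in mREC-like and cREC-like cells by less than 1.5-fold. It was at 638 and 839 CPM in mREC-like, 680 and 872 CPM in cREC-like and 501 and 525 CPM in *Rgs5*-led cells, with log2 ratios of 0.40 (0.29 to 0.50), 0.36 (0.22 to 0.50) and 0.07 (-0.05 to 0.18). Without the *Pgf*/*Bnip3*-led set the mREC-like ratio was 0.24, close to that of *Icam2*. In fibroblast-like cells it was at 1.60 CPM (3 UMIs) in *Cre-* and 15.1 CPM (63 UMIs) in *PHDTiEC*, and in pericyte-like cells at 14.1 and 53.8 CPM, beside 18.9 and 33.4 CPM in free RNA. In the fibroblast-like barcodes *Cdh5* was at 1.07 and 10.1 CPM and *Podxl* at 2.67 and 12.9 CPM. *Vwf* was at 1.60 and 5.98 CPM (3 and 25 UMIs) and *Esam* at 4.27 and 8.14 CPM (8 and 34 UMIs). *Emcn* was at 140.3 and 126 CPM and *Plvap* at 52.3 and 45.2 CPM. The log2 ratios of these last were -0.15 (-0.37 to 0.07) and -0.21 (-0.57 to 0.16), with intervals that include 0. *Cd34* was at 20.3 and 22.5 CPM there and *S1pr1* at 12.3 and 13.6 CPM. The pericyte-like barcodes held 7 and 26 UMIs of *Cd34*, 8 and 44 of *Jam2* and 8 and 33 of *S1pr1*, and the part of endothelial RNA in these values was not tested. In T/NK-like cells, a part of which carry PECAM1, it was at 35.5 and 54.3 CPM. For each *Pecam1* UMI there were 0.43 and 0.41 *Icam2* UMIs in T/NK-like cells and 0.014 and 0.015 of *Jam2*, where free RNA had 0.571 and 0.601 of *Icam2* and 0.80 and 0.53 of *Jam2*.

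*Jam2*, a junctional molecule of the immunoglobulin family, differed widely between endothelial-like classes in both libraries. It was at 773 CPM (1392 UMIs) and 733 CPM (1840 UMIs) in mREC-like and at 596 and 444 CPM in *Rgs5*-led cells, but at 121 and 166 CPM in cREC-like cells, an order that was the same in both libraries. The log2 ratio was -0.08 (-0.18 to 0.03) in mREC-like, -0.42 (-0.54 to -0.31) in *Rgs5*-led and 0.45 (0.13 to 0.78) in cREC-like cells. The cREC-like value was -0.11 within the *Aplnr*/*Plvap*-led set. The *Rspo3*/*Calca*-led set had the most *Jam2* in *Cre-*, 1139 CPM, but 627 CPM in *PHDTiEC*, where the *Gkn3*/*Vwf*-led set was highest at 884 CPM, and its log2 ratio in the *Rspo3*/*Calca*-led set was -0.86 (-1.09 to -0.64). In fibroblast-like cells *Jam2* was at 48.0 and 37.1 CPM, or 90 and 155 UMIs beside 3 and 63 of *Pecam1*. PT-like cells had 12 and 38 UMIs, under the level of free RNA, with a log2 ratio of 1.29 (0.33 to 2.37) that ran from 0.70 with the members kept among the variable genes to 2.27 without the top barcode of each library. Some markers of other cell types were higher there in *PHDTiEC*, the 13 endothelial markers at 41.9 and 62.6 CPM in sum, 7 pericyte markers at 37.8 and 75.7 CPM and 7 fibroblast markers at 5.26 and 20.3 CPM. Others were lower, with 6 neutrophil markers at 95.9 and 17.7 CPM and 9 T-cell markers at 16.4 and 6.73 CPM, and their part in the *Jam2* ratio was not tested.

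*Cd34* was level between the libraries in mREC-like cells, at 469 and 492 CPM with a log2 ratio of 0.07 (-0.06 to 0.20). It was at 549 and 683 CPM in cREC-like cells, a log2 ratio of 0.31 (0.16 to 0.47), and at 347 and 302 CPM in *Rgs5*-led cells, a log2 ratio of -0.20 (-0.35 to -0.05). In the *Aplnr*/*Plvap*-led set it was at 1065 and 1007 CPM. Injured PT-like cells also carried it, with 88 UMIs (10.2 CPM) in *Cre-* and 129 UMIs (16.7 CPM) in *PHDTiEC*, a log2 ratio of 0.72 (0.32 to 1.13). These levels lie below the 15.5 and 22.5 CPM of free RNA, whose part in them was not tested. *Pecam1* had 21 UMIs in each library in the same barcodes, which is 4.19 and 6.14 *Cd34* UMIs for each of *Pecam1*, where free RNA had 0.824 and 0.675. In these barcodes 7 fibroblast markers summed to 20.2 and 77.8 CPM and 13 endothelial markers to 102 and 93.3 CPM, and the part of the former in the *Cd34* ratio was not tested. The *Slc14a2*/*Fst*-led class likewise held 121 and 149 *Cd34* UMIs beside 19 and 13 of *Pecam1*. A *Cd34* UMI was seen in 17.6% and 22.1% of injured PT-like barcodes (medians of 21008 and 22295 UMIs) and in 1.37% and 2.13% of PT-like barcodes (19404 and 17519 UMIs).

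*Itgb1*, the shared subunit of the collagen, laminin and fibronectin receptors, was higher in *PHDTiEC* in 24 of the 27 classes in which it had at least 50 UMIs. Most differences were under 1.5-fold, the exception being a class with cycling and T-cell genes at 215 and 484 CPM (116 and 328 UMIs). Levels were 362 and 531 CPM in mREC-like, 458 and 563 CPM in *Rgs5*-led, 433 and 446 CPM in cREC-like, 291 and 421 CPM in injured PT-like and 588 and 798 CPM in fibroblast-like cells. The log2 ratios were 0.55 (0.41 to 0.69), 0.30 (0.18 to 0.42), 0.04 (-0.14 to 0.23), 0.53 (0.46 to 0.61) and 0.44 (0.34 to 0.54). Free RNA moved the same way, from 195 to 242 CPM, and over all barcodes the level was 258 and 319 CPM. The highest levels were in *Foxd1*-led cells of *Cre-*, at 679 CPM, and in fibroblast-like cells of *PHDTiEC*.

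Counted by the fixed rule of at least 1.5-fold and at least 50 UMIs over both libraries, the members were read against all genes. In cREC-like cells 5 of 10 members (*Icam1*, *Icam2*, *Sele*, *Selp* and *S1pr1*) were higher in *PHDTiEC* and 0 lower, where 8.56% of all 6332 genes were higher and 7.38% lower. In mREC-like cells 1 of 8 (*S1pr1*) was higher and 0 lower, beside 5.89% and 4.13% of 8067 genes, and in *Rgs5*-led cells 1 of 8 (*S1pr1*) and 0, beside 5.66% and 4.82% of 8794 genes. In PT-like cells 1 of 4 (*Jam2*) was higher and 1 (*Vcam1*) lower, beside 3.61% and 3.18% of 11399 genes. In injured PT-like cells 1 of 4 (*Cd34*) was higher and 0 lower, beside 4.95% and 2.21% of 11463 genes. These are counts past a fold in 2 libraries and not tested calls.

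The cREC-like count comes with differences in other RNA. The 7 injury markers of the tubule summed to 9640 CPM in *Cre-* and 2106 CPM in *PHDTiEC* in that class, 8 macrophage markers to 2264 and 5232 CPM and 5 erythroid markers to 1402 and 2713 CPM, 5 markers of platelets, which also carry P-selectin, to 48.9 and 71.1 CPM, and free RNA was estimated at 34.9% and 24.2% of its UMIs. The median mitochondrial share of its barcodes was 4.02% and 2.73%, and it was lower in *PHDTiEC* in the other endothelial-like and PT-like classes too (4.16% and 2.63% in mREC-like, 10.6% and 8.19% in PT-like cells). The 13 endothelial markers had a median log2 ratio of 0.32 in cREC-like, against 0.13 in mREC-like and -0.20 in *Rgs5*-led cells. In cREC-like cells 5 markers of glomerular endothelium summed to 1488 and 2017 CPM. The 4 of them with enough UMIs had a median log2 ratio of 0.60. Within the *Aplnr*/*Plvap*-led part of the class, where sets led by tubular or macrophage genes are left out, *Icam1* and *S1pr1* had log2 ratios of 0.80 and 0.68, while *Icam2* was at 0.50, *Sele* at 0.34 and *Selp* at 0.28. In the mREC-like class 9 markers of the proximal tubule stood higher in *PHDTiEC*, at 591 and 818 CPM, but injury markers were at 1660 and 585 CPM, 5 markers of the thick ascending limb at 203 and 23.1 CPM, macrophage markers at 1673 and 1056 CPM and free RNA at an estimated 15.8% and 8.38%. The *Rgs5*-led class held 3245 and 5822 CPM of tubular injury markers and 5.03 and 70.7 CPM of 9 T-cell markers. Free RNA was estimated at 10.4% and 31.5% of its UMIs. These estimates are loose, since they rest on marker lists of other cell types that differed widely. In the *Rgs5*-led class single lists gave observed over expected levels of 0.037 to 0.97 in *Cre-* and 0.012 to 0.66 in *PHDTiEC*. The part of these in the ratios was not tested otherwise.

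Other genes of the same steps were read beside HIF response genes in the same cells. The HIF list was chosen with results of these libraries known, and no difference between the lists was tested. Of 10 HIF response genes 9 were at least 1.5-fold higher in mREC-like *PHDTiEC* cells, among them *Pgf* at 2.78 and 96.8 CPM and *Adm* at 3.89 and 115 CPM. Of 16 other endothelial adhesion and transmigration genes with enough UMIs 2 were higher and 0 lower (5.89% and 4.13% of all genes). The higher ones were *Bsg* (basigin) at 263 and 598 CPM and *Vwf* (von Willebrand factor, stored with P-selectin) at 49.96 and 89.2 CPM. The median log2 ratio of these 16 was 0.0044, and *Cdh5* was at 663 and 728 CPM, *Esam* at 475 and 439 CPM and *F11r* (JAM-A) at 191 and 205 CPM. In cREC-like cells 1 of 16, *Vwf*, was higher (8.56% of all genes). In *Rgs5*-led cells *Vwf* had the opposite direction, at 38.9 and 20.9 CPM, as did *Plvap* at 197 and 106 CPM, while *Bsg* was higher at 314 and 487 CPM.

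Genes that work with single members were read the same way. Of 6 alpha subunits that pair with *Itgb1* and passed the UMI minimum in mREC-like cells 0 were past the fold. *Itga1* (a collagen receptor) was at 231 and 216 CPM and *Itga9* at 44.4 and 66.5 CPM. Of 11 genes of the adhesion machinery 1, *Vcl* (vinculin), was higher at 47.2 and 81.3 CPM. Of all genes in mREC-like cells 5.89% were higher and 4.13% lower. Of 6 genes of the sphingosine 1-phosphate pathway 0 were past the fold in mREC-like cells (5.89% higher and 4.13% lower of all genes). The lipid phosphatase gene *Plpp3* was at 260 and 257 CPM, *Plpp1* at 385 and 419 CPM and the exporter gene *Spns2* at 47.7 and 49.0 CPM. In cREC-like cells 1 of 5, *Plpp1*, was higher at 783 and 1223 CPM, beside 8.56% of all genes. Of the alpha subunits in that class 0 of 8 were higher and 2 lower, *Itgav* at 84.6 and 35.6 CPM and *Itga4* at 47.0 and 29.1 CPM, and of the adhesion machinery 0 of 10 were higher and 1 lower, *Parva* at 84.6 and 49.3 CPM, beside 7.38% of all genes lower. Of leukocyte integrin and selectin ligand genes with enough UMIs, 0 of 5 were higher and 1 (*Itgam*) lower in mREC-like cells (5.89% and 4.13% of all genes). In cREC-like cells 3 of 8 (*Itgam*, *Itgb2* and *St3gal4*) were higher and 2 (*Itgal* and *Itga4*) lower, beside 8.56% and 7.38% of all genes. *Itgam* and *Itgb2* are leukocyte genes, and macrophage markers in this class were at 2264 and 5232 CPM.

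The counts for NF-kB response genes are read beside the shares of all genes given above. Of 18 such genes in mREC-like cells 2 were higher and 0 lower (5.89% and 4.13% of all genes), the chemokine genes *Ccl2* at 15.5 and 35.9 CPM and *Cxcl2* at 46.1 and 129 CPM, with a median of 0.02 on the log2 scale. In cREC-like cells 4 of 15 (*Tnfaip3*, *Cxcl1*, *Cxcl2* and *Cxcl10*) were higher and 1 (*Bcl3*) lower (8.56% and 7.38% of all genes), with *Cxcl10* at 62.1 and 139 CPM. In *Rgs5*-led cells 1 of 17 (*Ccl2*) was higher and 1 lower, the latter *Cxcl2* at 139 and 89.6 CPM, against its direction in the other endothelial-like classes. In injured PT-like cells 1 of 19 (*Csf1*) was higher and 3 (*Nfkbie*, *Traf1* and *Ccl20*) lower, with a median of -0.38, of the same sign as the *Icam1* and *Vcam1* ratios there. All genes with enough UMIs had a median of 0.02 in mREC-like, 0.02 in cREC-like and 0.05 in injured PT-like cells. The NF-kB, HIF and other lists were chosen with results of these libraries known.

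Genes whose levels ran most like each member were found over 44 profiles (22 classes in 2 libraries) by Pearson's r of log2(CPM + 1), a description over classes that share libraries and free RNA. *Icam2* ran most like *Pecam1*, *S1pr1* and *Cd93* (r = 0.91 for each), and *S1pr1* most like *Ctla2a* (r = 0.91), *Icam2* (r = 0.91) and *Gimap4* (r = 0.87). *Pecam1* ran with *Cyyr1*, *Myct1* and *She* (r = 0.92 for each), *Cd34* with *Flt4*, *Meox1* and *Ldb2* (r = 0.91 to 0.92) and *Jam2* with *Ldb2*, *Fgd5* and *Fam181b* (r = 0.96 for each). *Selp* ran with *Btnl9*, *Aplnr* and *Sema6b* (r = 0.76 to 0.77), and *Vcam1* with *C1qtnf1*, *Gxylt2* and *Cp* (r = 0.82 to 0.83). *Icam1* ran with *Klf10*, *Pxn* and *Man1b1* (r = 0.73 to 0.74) and *Itgb1* with *Cpt1c*, *Rock2* and *Sept11* (r = 0.81 to 0.84). *Sele* was too sparse for this reading.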

How the data were processed

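The deposited files hold UMI counts, which the authors made with Cell Ranger (release 4 per the file headers, mm10 per the submitters' processing notes) and deposited for every barcode, unfiltered and not normalized. The totals were 136004367 UMIs in the *Cre-* and 146758812 UMIs in the *PHDTiEC* library. Both libraries were merged in Seurat 5.3.0 (R 4.3.3) and clustered on 2000 variable genes, from which 8 of the members were taken out, with 20 principal components at a resolution of 0.8. Of 30 clusters, 1 rich in *Gm26917* and *Gm42418* was left out, as the study did, and the rest were named from marker lists. The study also set a minimum of 0.8 on complexity (log10 of the genes over log10 of the UMIs), which keeps 8468 and 9233 barcodes and was run as an alternative.

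UMIs were summed per class and library and divided by the class total (CPM), and ratios were taken between libraries. Intervals are 95% and exact, Poisson for a level and Clopper-Pearson for a share or for the division of UMIs of a gene between libraries, and the limit for a share of 0 is 3 counts over the barcodes. The ratio step was tested on simulated data. No test between genotypes was made, since each has 1 mouse. Levels were not compared between genes, because 3′ counts depend on each gene's priming site. Antisense partners were not merged, and UMIs shared by overlapping genes cannot be reassigned.

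Doublets were scored in each library (scanpy 1.11.5). The automatic threshold marked 0 barcodes, so the top of the scores was marked at a set rate of 8%, which gave 637 (7.45%) and 716 (7.69%) barcodes, kept in the main values and left out in an alternative. Only 46.9% and 47.5% of the simulated doublets scored over that threshold, so others may remain. Alternatives were a mitochondrial limit of 20%, higher minimums of UMIs and genes, other clustering settings, TMM scaling (edgeR 4.0.16), CPM without mitochondrial and ribosomal genes, the mean over cells, subtraction of free RNA, the top barcode left out, no *Ptprc* and no *Epcam* UMI, and other UMI minimums. Those that leave out endothelial subclusters were chosen after seeing the data. The rule for named genes covered the 10 members in all classes, of which the text gives those with values that matter, the 3 most similar genes for each member with at least 200 UMIs, and pathway genes past the fold or with the most UMIs, not all of which are printed. A few others, named for their vessel or HIF context, were picked after their values were seen. The members, lists and markers were chosen with earlier results of these data known.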

Additional observations from a re-analysis of the deposited data

Results flagged for a closer look

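Of 10 members read over 5 classes, 3 had counting intervals of the log2 ratio on opposite sides of 0 in different classes. Only the 34 ratios with at least 50 UMIs over both libraries were compared, so *Sele* and *Selp* had 1 class each. *Sele* was lower in *PHDTiEC* in *Rgs5*-led cells, on too few UMIs for this comparison. With 1 library per genotype these differences were not tested. The *Icam1* ratio was 0.61 in cREC-like and -0.39 in injured PT-like cells, a difference of 1.00. The *Cd34* ratio was 0.72 in injured PT-like and -0.20 in *Rgs5*-led endothelial-like cells, a difference of 0.92, and the first rests on 88 and 129 UMIs. The *Jam2* ratio was 1.29 in PT-like and -0.42 in *Rgs5*-led endothelial-like cells, a difference of 1.72, and the first rests on 12 and 38 UMIs under the level of free RNA and ran from 0.70 to 2.27 over the alternatives.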

How the results depend on the processing

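No paired analysis was possible because each genotype has 1 library, and for the same reason no library could be left out. Over 34 member ratios and their alternatives 514 of 541 values kept their sign and 27 did not, and of the 156 values for the 10 ratios past 1.5-fold 131 stayed past it and 3 took the other sign. The ratio of *S1pr1* stayed past 1.5-fold in 17 of 17 alternatives in mREC-like and in *Rgs5*-led and in 14 of 17 in cREC-like cells. In cREC-like cells the mean over cells gave -0.25 for *Sele* and -0.013 for *Selp*, and barcodes with no *Ptprc* and no *Epcam* UMI gave -0.0024 for *Selp* and 0.56 for *Icam2*. Without the subclusters with tubular, haemoglobin or macrophage RNA *Selp* was at 0.28 and *Icam2* at 0.56, and in the *Aplnr*/*Plvap*-led subcluster alone they were at 0.28 and 0.50. *S1pr1* in *Rgs5*-led cells was at 1.03 with free RNA subtracted and at 0.88 without doublet-marked barcodes, and *Cd34* in injured PT-like cells was at 1.19 without the latter. *Vcam1* in PT-like cells was at -0.77 with at most 20% mitochondrial UMIs and at -0.40 as the mean over cells. Its level in injured PT-like cells was 1248 CPM in *Cre-* and 924 CPM in *PHDTiEC* as the mean over cells, and 1310 and 952 CPM with free RNA subtracted. The causes of these shifts were not tested. Counts of genes past 1.5-fold follow the UMI minimum by construction. With minimums of 10 and 100 UMIs the genes higher in *PHDTiEC* numbered 1142 and 264 in mREC-like, 1382 and 260 in cREC-like, 1365 and 240 in *Rgs5*-led, 1299 and 342 in injured PT-like and 1089 and 230 in PT-like cells. The genes lower numbered 1205 and 134, 1751 and 193, 1171 and 195, 741 and 121, and 957 and 229 in the same order. A resolution of 0.4 gave no separate cREC-like or injured PT-like class, so it has no value there.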
